A study of Homo sapiens with 6 samples.

Results

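KYSE150 is an established human cell line derived from an oesophageal squamous cell carcinoma, a cancer of the stratified lining of the oesophagus. The study compared cells given TPA, a phorbol ester that activates protein kinase C, with cells given the solvent dimethyl sulfoxide (DMSO), and sequenced RNA from 3 libraries of each. Only the 3 DMSO libraries are described here, out of 6 in all, and they were chosen by their labels (DMSO 1, 2 and 3) and the count columns named control 1, 2 and 3. Cells of both groups were grown in plates to near confluence and then kept overnight in medium without serum, per the labels. The labels give a TPA dose of 10 ng/ml and an exposure of 24 h, while no amount or time of exposure is stated for DMSO. Every value below therefore describes serum-starved cells of 1 cell line in solvent, with no serum-fed or untreated sample to set beside them, and nothing in the labels says whether the 3 libraries came from separate cultures.

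Reads were counted per gene. The DMSO libraries held 28219863, 30207144 and 27702329 counts, and a level is given as CPM, the count of a gene divided by the library's total and multiplied by 1000000. Values stand in the order DMSO 1, DMSO 2 and DMSO 3 throughout, and SD is over these 3 libraries. A count of 0 allowed up to 0.106, 0.0993 and 0.108 CPM in the 3 libraries (3 counts of the total), and such limits cover counting error only. A longer transcript collects more reads, so levels of different genes are compared only as CPM per kilobase of the gene's longest annotated transcript. Where the cells made a shorter transcript, that value is too low, and which transcript was made is not known.

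Stratified squamous epithelium renews itself from a basal layer, whose cells express keratins 5 and 14 and the transcription factor p63 and are anchored to the basement membrane by their own laminin trimer and the integrin α6β4. Cells that leave this layer switch to suprabasal keratins and then make the proteins of the cornified envelope. Squamous carcinomas often keep much of the basal programme, and many depend on the EGF receptor. Serum supplies growth factors, hormones and lipids, so its removal is known to lower immediate-early transcription and to release the sterol-sensing factor SREBP2 to induce sterol synthesis genes.

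The 3 libraries were not equally alike. Over 17238 genes with a mean of at least 1 CPM, log2(CPM + 1) correlated at r = 0.996 between DMSO 2 and DMSO 3, at 0.979 between DMSO 1 and DMSO 2 and at 0.977 between DMSO 1 and DMSO 3. These correlations run across genes, which are not independent replicates, and carry no p-value. The chi-square of the counts per degree of freedom is near 1 where counting error is the only difference between 2 libraries. It was 7.33 for DMSO 2 and 3 but 47.9 and 51.9 for the pairs with DMSO 1. Among 10259 genes with a mean of at least 10 CPM, 510 (4.97%) had a highest library over 2 times the lowest, and DMSO 1 lay farthest from the median library in 494 of these (96.9%). The median coefficient of variation over the same genes was 12.0%. Because DMSO 1 stands apart, values are printed for each library, and a difference between single libraries has no replicate behind it and was not tested.

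In all, 15956 of 60591 genes reached 1 CPM in all 3 libraries, 9792 reached 10 CPM, 2128 reached 100 CPM and 48 reached 1000 CPM. At the other end, 23173 genes had no count in any library. Protein-coding genes took 94.8 ± 0.224% of the counts (SD, n = 3). Of 19835 such genes, 11969 (60.3%) were at 1 CPM or more in every library and 3044 (15.3%) had no count. These shares are the background for the counts of protein-coding list members given below. The counts were spread over many genes: the 10 with the most reads held 5.01 ± 0.266% of each library's total (SD, n = 3), the top 100 held 16.1 ± 0.589%, and 1295 genes were needed to reach 50% of the mean CPM.

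Genes of translation, the actin cytoskeleton and cell adhesion led the list of read counts. EEF1A1, the elongation factor that brings aminoacyl-tRNA to the ribosome, stood first with 10893, 10609 and 10958 CPM. RN7SL1, the RNA of the signal recognition particle, followed with 9466, 7106 and 8469.8 CPM. The RN7SL copies are nearly identical, so reads of this family could be shared or lost between them. ACTB, cytoplasmic β-actin, had 4320.4, 5489.6 and 5637 CPM, and the nuclear noncoding RNA MALAT1 had 4006, 4306 and 5759.9 CPM. EEF1A1 was the closest of these 4 between libraries, at 10820.0 ± 185 CPM (SD, n = 3), while the other 3 had wider ranges. EEF2, the translocation factor of the ribosome, had 4489, 4409 and 4838 CPM and the glycolytic enzyme GAPDH had 4089, 4117 and 4379 CPM.

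The next positions were held by large structural and matrix proteins. AHNAK, a giant scaffold beneath the plasma membrane, had 2420.3, 3931 and 3133 CPM. THBS1, the secreted matrix glycoprotein thrombospondin-1, had 2409, 3516 and 3243 CPM. FLNA, the actin crosslinker filamin A, had 2647, 3081 and 3364 CPM, and MYH9, non-muscle myosin heavy chain IIA, had 2335, 2757 and 2964 CPM. All 4 were lowest in DMSO 1. RACK1, a scaffold on the small ribosomal subunit, had 3024, 3032 and 3227 CPM, while ACTG1, γ-actin, had 2396, 3089.7 and 3359.6 CPM. PTPN14, a tyrosine phosphatase that restrains YAP, was among the 25 genes with the most reads at 2299, 2605 and 2293 CPM. PRKDC, the catalytic subunit of the DNA-dependent protein kinase, had 1753, 1950.5 and 1635 CPM.

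Genes of lipid synthesis, the cell cycle and the cell surface also stood among those 25. SCD, the stearoyl-CoA desaturase of fatty acid synthesis, had 1078, 3040.0 and 2976 CPM and so differed more between the libraries than any other of the 25. CCND2, the G1 cyclin D2, had 1271, 2324 and 2182 CPM. EGFR, the EGF receptor, had 2079, 1827 and 1487 CPM, and CD44, a hyaluronan receptor of basal cells, had 1882, 1696 and 1439.9 CPM. SCD and CCND2 were lowest in DMSO 1, whereas EGFR and CD44 were highest there. PABPC1, the poly(A)-binding protein, had 2193, 2266 and 2041 CPM, and TPT1, a growth-related protein translated from a ribosomal-type message, had 2008, 1836 and 1773 CPM.

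**Figure D1:**
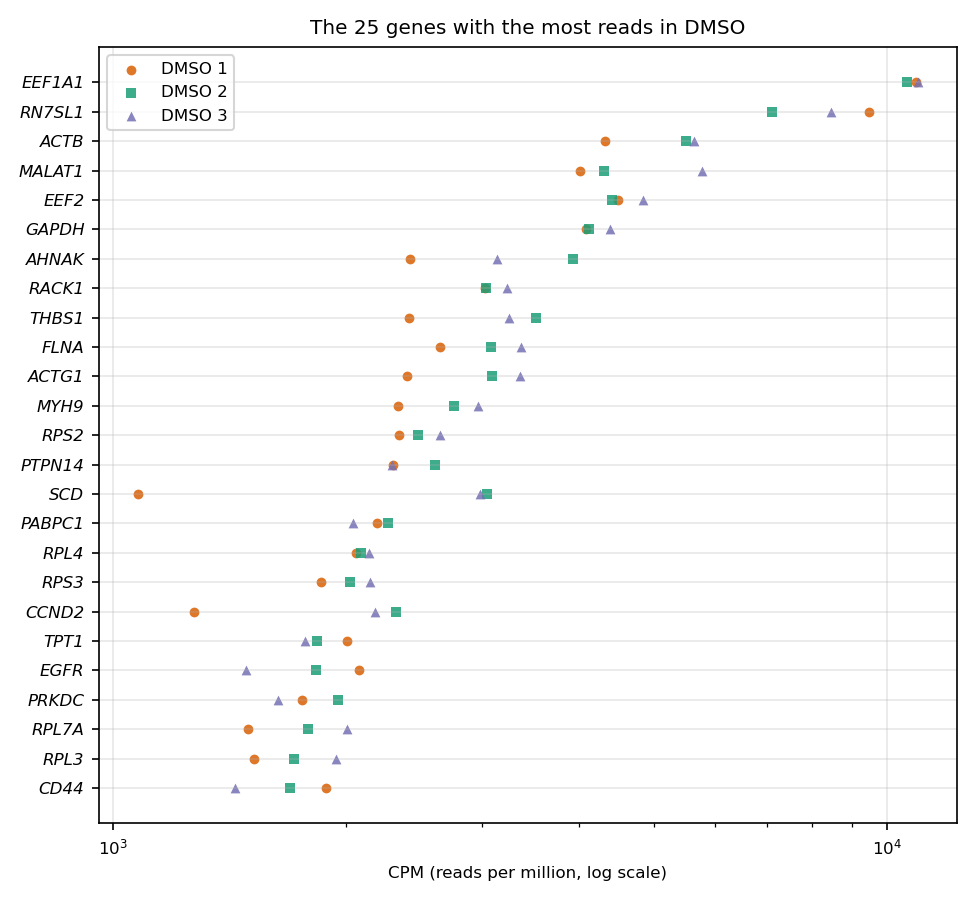
CPM on a log axis (horizontal) of the 25 genes with the highest mean over the DMSO libraries, with 1 point per library and no averaging. EEF1A1 leads at 10609 to 10958 CPM with its 3 points nearly on top of each other, while SCD runs from 1078 CPM in DMSO 1 to 3040 CPM in DMSO 2.

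Scaled by length, short and abundant RNAs stood at the head of the list. RN7SL1 reached 27917 CPM per kilobase, ACTB 2680, RPS2 2506, EEF1A1 2436, GAPDH 2237 and RPL12 2228. The RNA of RNase MRP, RMRP, followed within the first 10 at 1930 CPM per kilobase. RN7SL1 and RMRP are transcripts of RNA polymerase III, and the other 5 genes encode actin, translation or glycolysis proteins.

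The 79 cytoplasmic ribosomal protein genes on the list were all above 1 CPM in every library and took 5.36%, 5.51% and 5.74% of the counts. They were also the steadiest of the lists with at least 5 genes at a mean of 10 CPM: their median coefficient of variation was 5.07%, against 12.0% over all 10259 genes, and 0 of 79 differed over 2-fold, against 4.97% of the 10259. RPS2 had 2338, 2478 and 2648 CPM, RPL4 had 2062, 2091 and 2139 CPM and RPS3 had 1857, 2023 and 2148 CPM. RPL7A had 1496, 1787 and 2006 CPM and RPL3 had 1523, 1716 and 1939 CPM, both lowest in DMSO 1 and highest in DMSO 3. Ribosomal protein genes have many processed pseudogenes, so the exact level of each one is uncertain. These messages are known for a 5′ terminal oligopyrimidine tract, a C at the first transcribed base followed by an unbroken run of pyrimidines, through which mTORC1 controls their translation. A C at the RefSeq start followed by at least 4 pyrimidines was found in 43 of 63 ribosomal protein promoters with an entry (68.3%), against 4.45% of 17940 promoters in the table, scored on the gene's strand only. To show the tract, 4 of them are printed from 10 bases before the start to 20 after it, on the gene's strand, with the pyrimidine run from the first transcribed base in capitals (RefSeq, GRCh38.p14).
RPS3, chr11:75399508-75399537, plus strand: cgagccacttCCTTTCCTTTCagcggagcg
RPS14, chr5:150449720-150449749, minus strand: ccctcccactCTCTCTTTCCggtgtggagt
RPL7A, chr9:133348208-133348237, plus strand: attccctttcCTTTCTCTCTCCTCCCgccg
RPL12, chr9:127451387-127451416, minus strand: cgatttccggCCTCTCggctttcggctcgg

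Marker genes of basal squamous epithelium were expressed. KRT5 (keratin 5, chr12:52514575-52520687 on GRCh38), the defining basal keratin, had 461, 1884 and 1972 CPM, a mean of 1439 ± 848 CPM (SD, n = 3). TP63 (chr3:189631416-189897279), which encodes the master regulator p63, had 168, 304 and 249 CPM, or 240.2 ± 68.1 CPM (SD, n = 3). LAMB3 (chr1:209614870-209652466), the β3 chain of that laminin, had 849.6, 489.8 and 540.1 CPM, or 627 ± 195 CPM (SD, n = 3). All 3 markers were thus read in every library, but no cells of another type were there to set them against, so the label itself was not tested. KRT5 and TP63 were lowest in DMSO 1, whereas LAMB3 was highest there. In RNA from many cells together, fewer expressing cells and less RNA per cell cannot be told apart.

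All 17 genes of the basal list were above 1 CPM in every library, 14 of them at a mean of 100 CPM or more, and together they took 0.806%, 1.05% and 1.03% of the counts. Genes of the hemidesmosome were read in every library: ITGB4 (integrin β4) had 714, 1222 and 1243 CPM and ITGA6 (integrin α6) had 562, 664 and 521 CPM. COL17A1, the transmembrane collagen of the hemidesmosome, had 627, 874 and 847 CPM. DST, whose epithelial isoform links keratin to the hemidesmosome, had 1077, 890.4 and 1125 CPM. SFN, the p53 target 14-3-3σ, had 197, 388 and 396 CPM and TRIM29, a tripartite motif protein of basal cells, had 96.8, 275 and 269.6 CPM, both lowest in DMSO 1. Per kilobase, KRT5 had 182, 744 and 779, CD44 had 328, 296 and 251 and SFN had 149, 294 and 299.9, so that KRT5 was above CD44 in DMSO 2 and DMSO 3 and below it in DMSO 1.

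The basal keratin pair was lopsided. KRT14, the usual partner of keratin 5, had only 6.95, 20.99 and 20.3 CPM, and KRT15, another type I keratin of basal cells, had 29.02, 261 and 266 CPM. Per kilobase, KRT5 stood at 569, KRT15 at 35.4 and KRT14 at 9.66. The length used was 5237 bases for KRT15 and 2531 for KRT5, so KRT15 is understated if a shorter transcript was the one made. The keratins of simple epithelia were abundant instead: KRT18 had 1086, 909.7 and 1022 CPM and KRT8 had 833, 804 and 977 CPM, and their levels per kilobase were 593 and 358. KRT18 shares 16.3% of its annotated exon bases with KRT8, and both have many pseudogenes. KRT19 had only 1, 2 and 3 counts and KRT20 had 3, 0 and 0, so 2 other simple keratins were at or below the counting limit. KRT17, a keratin of activated keratinocytes, had 52.5, 126 and 122 CPM, but its relatives KRT16 with 2.20, 9.004 and 9.06 CPM and KRT6A with 0.496, 1.29 and 2.02 CPM were low, and KRT6C had no count. The KRT6 copies are nearly identical and could share or lose reads.

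Of 26 squamous transcription factor genes, 21 were above 1 CPM in every library, against 60.3% of all protein-coding genes. BNC1, basonuclin of proliferating keratinocytes, had 137, 121 and 107 CPM. GRHL2, which maintains epithelial junction genes, had 86.5, 129 and 128 CPM and TFAP2A had 68.4, 90.01 and 87.2 CPM. KLF5 had 88.6, 82.4 and 66.8 CPM, and KLF4, a factor of differentiating layers, had 49.1, 26.7 and 25.2 CPM. SOX2, a lineage factor of the oesophagus that is amplified in many squamous carcinomas, was almost absent at 0.177, 2.12 and 1.99 CPM, from 5, 64 and 55 counts. BARX1 and HOPX had no count in any library.

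Genes of the upper layers varied from no count to over 100 CPM. Of 36 suprabasal and cornified envelope genes, 12 had no count in any library, 25 had a mean below 1 CPM and 10 were above 1 CPM in all 3 libraries. Over all 19835 protein-coding genes, 15.3% had no count and 60.3% were at 1 CPM or more in every library. IVL (involucrin), LORICRIN, KRT2, MAL and the psoriasin gene S100A7 were among the 12, together with SPRR1B, SPRR2A, SPRR2D, SPRR2E, SPRR3, S100A8 and S100A12. KRT13 and KRT4, the suprabasal keratin pair of the normal oesophagus, had 0, 0.265 and 0.144 CPM and 0.248, 0.166 and 0.469 CPM. The 5 members with a mean of 10 CPM or more were PPL, EVPL, KLK5, KRT10 and CSTA. PPL (periplakin) had 160.5, 212 and 231 CPM, EVPL (envoplakin) had 60.4, 78.8 and 86.3 CPM and KLK5, a kallikrein protease, had 60.1, 66.97 and 76.02 CPM.

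**Figure D2:**
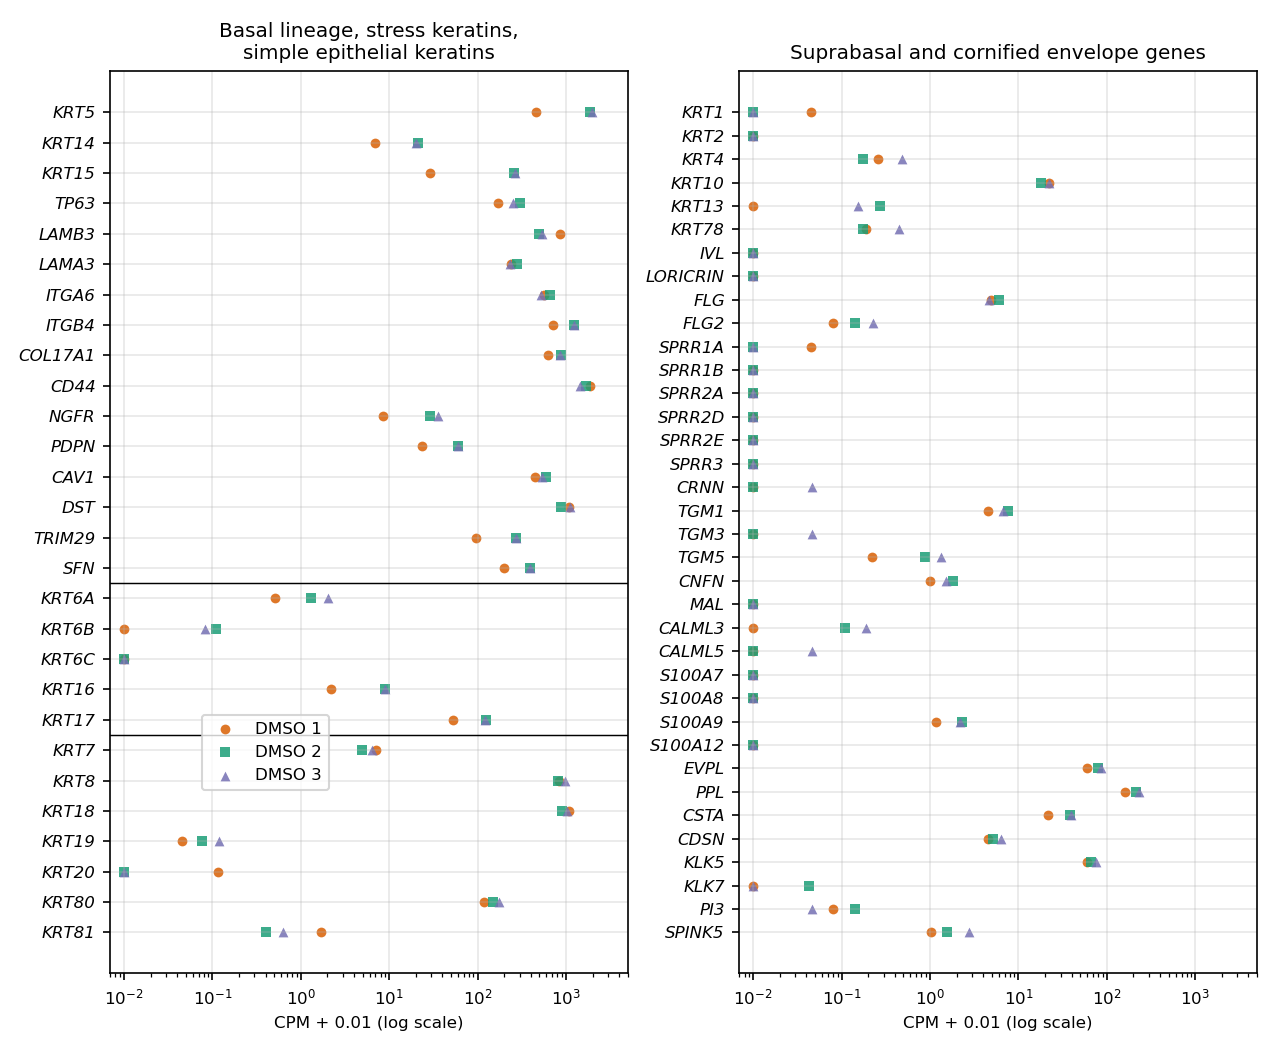
CPM plus 0.01 on a log axis for each DMSO library, with 16 of the 17 basal genes and the stress and simple keratin genes on the left (separated by lines) and suprabasal and cornified envelope genes on the right; points at the left edge are counts of 0. The basal genes lie mostly above 100 CPM, while 12 of the 36 genes on the right sit at 0 in all 3 libraries.

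Cell contacts were epithelial. CDH1 (E-cadherin) had 662, 768 and 734 CPM and CDH3 (P-cadherin, typical of basal cells) had 564, 604 and 641 CPM, whereas CDH2 (N-cadherin) had 1 count in each library. DSP, the desmosomal plakin desmoplakin, had 674, 1079 and 879 CPM, and JUP (plakoglobin) had 414, 454 and 452 CPM. The desmosomal cadherins of lower layers, DSG2 with 293, 296 and 235 CPM and DSG3 with 115, 113 and 98.7 CPM, were expressed, but DSG1 and DSG4 of the upper layers had no count. At tight junctions, TJP1 (ZO-1) had 776, 542 and 459 CPM and CLDN4 (claudin-4) had 492, 323 and 359 CPM, both highest in DMSO 1. Of 21 mesenchymal genes 10 were above 1 CPM in every library, against 60.3% of all protein-coding genes. They were led by FN1 (fibronectin) with 143, 116 and 114 CPM and SNAI2 (Slug, also a factor of basal keratinocytes) with 63.5, 64.9 and 51.4 CPM. VIM, vimentin of mesenchymal cells, had only 4.68, 3.48 and 2.89 CPM. ZEB1, a repressor of E-cadherin, had 6.45, 1.22 and 1.41 CPM, and ZEB2 had 0, 0 and 1 count.

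Markers of other cell types were read as lists. The summed CPM of 18 leukocyte markers was 11.02, 9.87 and 10.2, that of 12 fibroblast markers 9.28, 14.8 and 17.3, and that of 10 endothelial markers 10.6, 6.72 and 6.21. Of the 18 leukocyte markers 4 had no count, among them CD3D and CD2, and 3 were above 1 CPM in every library: CD5 with 4.89, 3.08 and 3.14 CPM, CD3E with 2.37, 4.14 and 3.18 CPM and CD68 with 2.20, 1.29 and 2.71 CPM. Of the fibroblast markers 3 (DCN, PDGFRA and POSTN) had no count and 2 were above 1 CPM in every library, with COL1A1 (collagen I) the highest at 5.49, 11.8 and 13.4 CPM. Of the endothelial markers KDR, EMCN and CLEC14A had no count and 2 were above 1 CPM in every library, with ESAM the highest at 6.59, 3.28 and 2.42 CPM. Over all 19835 protein-coding genes, 15.3% had no count and 60.3% were at 1 CPM or more in every library, and these shares apply to the marker lists of this paragraph. Sums for 17 glandular and intestinal, 17 hepatic, muscle and erythroid, and 8 lung and thyroid markers had means of 18.6, 4.32 and 2.97 CPM. Of 13 neural and melanocyte markers 9 were above 1 CPM in every library, and their sum was 99.97, 52.0 and 53.1 CPM, of which MAP2, a microtubule-associated protein, gave 42.6, 13.3 and 11.98 CPM and MITF, whose product also acts outside melanocytes, gave 26.6, 14.7 and 12.7 CPM. TYR and S100B of the same list had no count.

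Some genes normally restricted to the germline were expressed. MAGEA4, a cancer-testis antigen on the X chromosome (chrX:151912509-151925170), had 200.2, 219.7 and 244 CPM. Its relatives MAGEA3 with 86.5, 80.1 and 94.3 CPM, MAGEA6 with 52.6, 52.4 and 59.1 CPM and MAGEA12 with 51.3, 47.9 and 56.6 CPM are near-identical copies, so the division of reads between them is uncertain. Of the 27 cancer-testis genes, 14 had no count, among them BRDT, CT83, CTAG1B, CTAG2 and DAZL, and 6 were above 1 CPM in every library. Of all protein-coding genes, 15.3% had no count and 60.3% were at 1 CPM or more in every library. The 4 MAGEA genes given here had a median coefficient of variation of 8.27%, against 12.0% over all 10259 genes with a mean of at least 10 CPM.

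Antigen presentation genes were expressed unevenly. HLA-E had 346, 336 and 381 CPM and B2M, the class I light chain, had 199.6, 219 and 172 CPM. HLA-C had 56.6, 67.8 and 73.8 CPM and HLA-B had only 1.52, 1.13 and 1.99 CPM. Per kilobase the order was HLA-E at 136, HLA-C at 42.5 and HLA-B at 0.999. These genes are similar copies that vary between people, so the split of reads among them is uncertain. Among class II genes, HLA-DRA and HLA-DQA1 had no count.

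Receptor tyrosine kinases, which carry growth factor signals across the membrane, were measured through 58 genes. Of these, 31 were above 1 CPM in every library, 27 had a mean below 1 CPM and 6 had no count. Over all protein-coding genes 60.3% were at 1 CPM or more in every library and 15.3% had no count. Per kilobase DDR1, a collagen receptor, was first at 162, 243 and 258. EGFR followed at 212, 186 and 151 and AXL, the GAS6 receptor, at 191, 170.4 and 183, so the ranges of these 3 genes overlapped and their order is not resolved. MET, the HGF receptor, came next at 103, 66.7 and 56.9, below all of the first 3 in each library. EPHA2, RYK, PTK7, FGFR2 and EPHB4 formed the next step, with means from 30.9 to 34.5 CPM per kilobase and overlapping ranges.

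In reads, EGFR had 1798 ± 297 CPM (SD, n = 3), DDR1 had 915 ± 214 CPM (SD, n = 3) and AXL had 859 ± 49.3 CPM (SD, n = 3). Within the EGF receptor family, ERBB3 had 72.1, 113 and 109 CPM and ERBB2 (HER2) had 68.2, 97.9 and 105 CPM, while ERBB4 had 0, 0 and 2 counts. IGF1R, the receptor of insulin-like growth factor, had 230.3, 364 and 332 CPM, and INSR, the insulin receptor, had 39.2, 46.2 and 45.2 CPM. FGFR2, a receptor of keratinocyte growth factor in its epithelial form, had 90.4, 159 and 158 CPM, whereas FGFR3 had 4.04, 27.3 and 28.2 CPM. KIT, PDGFRA, KDR, FLT3, EPHA6 and EPHA7 had no count, and the first 4 are receptors of haematopoietic, mesenchymal or endothelial cells. Not all such receptors were silent: CSF1R, also a haematopoietic receptor, had a mean of 11.5 CPM, and 8.54 CPM without DMSO 1.

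**Figure D3:**
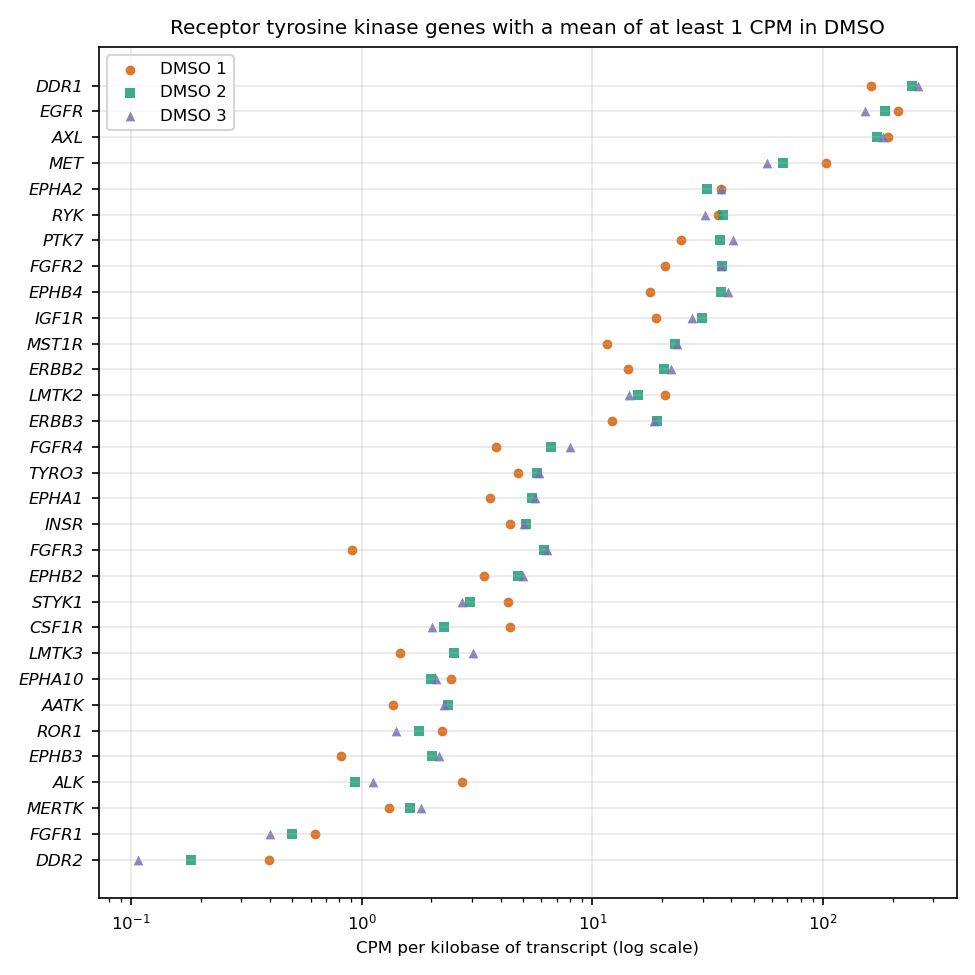
CPM per kilobase of transcript on a log axis for the receptor tyrosine kinase genes with a mean of at least 1 CPM, 1 point per DMSO library, in order of the mean. DDR1, EGFR and AXL lie at the top with overlapping points, and FGFR3 is the gene whose DMSO 1 point lies farthest from the others.

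RNA of ligands for these receptors was read in the same libraries. NRG1, neuregulin-1, the ligand of ERBB3, had 188, 248 and 232 CPM, and TGFA, a ligand of the EGF receptor, had 140.3, 101 and 101 CPM. AREG (amphiregulin) had 48.1, 36.3 and 32.2 CPM and HBEGF, heparin-binding EGF, had 46.6, 13.2 and 12.7 CPM. The highest HBEGF value, in DMSO 1, was 3.68 times the lowest, in DMSO 3. The other 7 of 11 EGF family genes had means below 10 CPM, and NRG3 had no count. GAS6, the ligand of AXL, had 107, 140.3 and 158 CPM.

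Of 54 cytokine receptor genes, 31 were above 1 CPM in every library and 3 had no count, against 60.3% and 15.3% of all protein-coding genes. OSMR, the oncostatin M receptor, had 667, 602 and 523 CPM and was first per kilobase at 108, ahead of IL4R at 39.3. IL6ST, the gp130 chain that it pairs with, had 237, 81.5 and 104 CPM and LIFR had 35.4, 24.9 and 24.8 CPM, while IL6R had 58.9, 27.3 and 24.7 CPM. IL6ST and IL6R were both over 2 times higher in DMSO 1 than in either other library. IL4R had 133, 151 and 151 CPM and IL13RA1 had 68.9, 81.2 and 62.3 CPM, the 2 chains of the type II interleukin-4 receptor. The interferon receptor chains IFNGR2 with 56.2, 58.3 and 59.1 CPM, IFNAR1 with 54.8, 52.2 and 46.7 CPM and IFNGR1 with 42.5, 29.8 and 26.5 CPM were present in every library. IL2RA, CSF2RA and PRLR had no count.

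Among 27 death and TNF family receptors, TNFRSF12A, the TWEAK receptor, was highest per kilobase at 153 and had 174 ± 37.6 CPM (SD, n = 3). LTBR, the lymphotoxin β receptor, had 180.3, 214 and 214 CPM. The TRAIL receptors TNFRSF10B with 185, 143 and 153 CPM and TNFRSF10A with 97.8, 77.1 and 76.96 CPM were expressed, and TNFRSF1A, the main TNF receptor, had 54.2, 77.7 and 79.5 CPM. TNFRSF1B, TNFRSF13B and TNFRSF19 had no count. NGFR, a receptor of neurotrophins that also marks basal progenitors, had 8.43, 29.3 and 35.7 CPM.

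The TGF-β receptors were present as a pair: TGFBR2, the ligand-binding type II chain, had 226, 233 and 216 CPM, and TGFBR1, the type I chain, had 95.9, 71.97 and 66.5 CPM. Their means were 225 ± 8.60 CPM (SD, n = 3) and 78.1 ± 15.6 CPM (SD, n = 3). Of 14 genes in this family 11 were above 1 CPM in every library, against 60.3% of all protein-coding genes. Among 22 Notch, Frizzled and related receptors, NOTCH2 had 320.4, 265 and 243 CPM and NOTCH1 had 50.9, 65.3 and 62.2 CPM, while NOTCH3, a receptor induced during squamous differentiation, had 13.9, 95.4 and 103 CPM. LRP5, a co-receptor of Wnt proteins, had 114, 183 and 195 CPM and PTCH1, the Hedgehog receptor, had 44.05, 76.7 and 70.6 CPM. FZD6 with 59.6, 64.8 and 58.8 CPM and FZD2 with 37.5, 54.1 and 59.1 CPM were the Frizzled genes with the most reads, and FZD8 and FZD10 had no count.

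Integrins known from basal keratinocytes were expressed. Besides ITGB4 and ITGA6, ITGA3 (α3, a laminin receptor) had 499.7, 640.3 and 677 CPM and ITGB1 had 470.4, 493 and 406 CPM. ITGA2, of the collagen receptor α2β1, had 237, 203 and 157 CPM, and ITGA5, of the fibronectin receptor, had 71.3, 57.4 and 62.2 CPM. ITGB5 had 154, 174 and 190.3 CPM, ITGB8 had 119, 227 and 226 CPM and ITGAV, with which both pair, had 88.9, 82.1 and 77.2 CPM. ITGA4 and ITGA8 had no count. Of 26 chains 16 were above 1 CPM in every library, close to the 60.3% of all protein-coding genes at that level.

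Of 48 nuclear receptor genes, 29 were above 1 CPM in every library and 5 had no count, against 60.3% and 15.3% of all protein-coding genes. NR3C1, the glucocorticoid receptor, had 199.9, 202 and 183 CPM and was among the steadiest receptors at 195 ± 10.6 CPM (SD, n = 3). RXRA, the shared partner of many nuclear receptors, had 85.6, 159.8 and 169.7 CPM and was highest per kilobase at 74.9. RARG, the retinoic acid receptor of squamous epithelia, had 55.9, 102 and 109 CPM, and VDR, the vitamin D receptor, had 91.3, 105 and 105 CPM. NR2F2 had 132, 156 and 145 CPM, and NR1D2, a repressor of the circadian clock, had 173, 76.04 and 81.8 CPM. PPARD had 112, 60.4 and 67.8 CPM, whereas PPARG, PGR, NR0B1, NR2E1 and RORB had no count. ESR1, an oestrogen receptor, had 14, 14 and 9 counts.

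G protein-coupled receptors were led by an orphan gene. GPRC5A, a retinoic acid-induced receptor of epithelia, had 1859, 1306 and 1359.6 CPM, and was highest in DMSO 1. The thrombin receptor F2R had 252, 512 and 421 CPM and the trypsin receptor F2RL1 had 237, 292 and 260.3 CPM. ADORA2B, an adenosine receptor, had 64.9, 62.8 and 64.8 CPM. Of 46 genes listed 8 had no count, among them ACKR3, ADRB3, CXCR4, EDNRB and P2RY1, against 15.3% of all protein-coding genes.

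Sensors of nucleic acids and microbes were partly present. MAVS, the mitochondrial adaptor of RNA sensing, had 175, 262 and 250.1 CPM and the inflammasome sensor NLRP1, typical of keratinocytes, had 104, 71.6 and 73.1 CPM. CGAS, the sensor of cytosolic DNA, had 30.05, 40.3 and 47.3 CPM, and its adaptor STING1 had 12.7, 31.5 and 33.8 CPM. TLR3 had 1.91, 4.90 and 4.08 CPM, while TLR2 had 0, 1 and 0 counts and TLR4 had 2, 1 and 0. TLR10 had no count.

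Protein kinase C and the other proteins with a phorbol ester-binding C1 domain are the direct targets of the compound that the study set against DMSO, so their level in solvent was read gene by gene. Of 24 genes 14 were above 1 CPM in every library, close to the share of 60.3% over all protein-coding genes. PRKCA, a conventional isoform, had 81.6, 88.6 and 81.00 CPM, or 83.7 ± 4.24 CPM (SD, n = 3). The calcium-independent isoforms PRKCE with 55.8, 41.8 and 43.6 CPM, PRKCH with 48.2, 42.01 and 39.1 CPM and PRKCD with 38.4, 31.98 and 32.1 CPM were all present, while PRKCQ had 3.15, 2.95 and 3.32 CPM. PRKCB, the other main conventional isoform, had 1, 0 and 0 counts. The atypical isoforms, which do not bind phorbol esters, were PRKCI with 109, 109.6 and 86.7 CPM and PRKCZ with 25.6, 26.9 and 31.1 CPM. Per kilobase PRKCD, PRKCH and PRKCZ lay within 12.03 to 12.2, with PRKCA at 9.57 and PRKCE at 8.33.

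Beyond the kinase C family, the protein kinase D genes PRKD2 with 52.1, 60.1 and 64.98 CPM and PRKD3 with 59.1, 59.4 and 57.3 CPM and the vesicle priming gene UNC13B with 52.4, 48.2 and 47.2 CPM were expressed. The list also holds UNC13D, whose product lacks this domain, with 52.6, 51.2 and 54.5 CPM. CHN1, a Rac-regulating chimaerin, had 21.4, 15.00 and 17.1 CPM. RASGRP1, a Ras exchange factor best known in T cells, had 4.11, 1.82 and 2.20 CPM. Of the 11 genes on this list with a mean of 10 CPM or more, 0 differed over 2-fold between the libraries, where 4.97% of all genes at that level did. At that share a list this short would hold few or none, so the 0 does not set it apart.

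Genes of the chain from receptor to ERK were expressed at each step. All 29 RAS-MAPK genes had counts and 28 were above 1 CPM in every library. NF1, a GTPase-activating protein of Ras, had 561, 583 and 507 CPM, and PTPN11, the SHP2 phosphatase, had 402, 313 and 265 CPM. SHC1 had 118, 146 and 157 CPM, GRB2 had 101, 102 and 118 CPM and NRAS had 153, 111 and 93.7 CPM. ARAF, a kinase of the first tier, had 79.9, 77.2 and 76.6 CPM, and MAP2K1 with 117, 93.8 and 109 CPM and MAP2K2 with 121, 128 and 145 CPM encode the kinases that act on ERK. Of the phosphatases that feed back on ERK, DUSP4 had 87.4, 61.3 and 65.05 CPM and DUSP6 had 20.6, 23.2 and 22.6 CPM.

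In the PI3K, AKT and mTOR list 21 of 22 genes were above 1 CPM in every library. Of the 18 with a mean of 10 CPM or more, 0 differed over 2-fold, against 4.97% of all genes. With so few genes that share would also give few or none. AKT2 had 129, 193 and 195 CPM and AKT1 had 79.3, 97.9 and 106 CPM. MTOR had 127, 129 and 133 CPM and PIK3CA, a catalytic subunit of PI3K, had 63.3, 43.5 and 51.9 CPM. RICTOR, the scaffold of mTORC2, had 282, 155 and 187 CPM, highest in DMSO 1.

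NF-kB and AP-1 genes were expressed without serum. RELA, the main transactivating NF-kB subunit, had 143, 108 and 110.5 CPM, NFKB1 had 100, 66.6 and 70.2 CPM and NFKB2 had 144, 78.6 and 89.9 CPM. The inhibitors induced by NF-kB itself were NFKBIA with 71.97, 58.6 and 65.2 CPM and TNFAIP3 (A20) with 195, 60.6 and 61.8 CPM. Among AP-1 genes, FOSL2 had 234, 246 and 257 CPM, FOSL1 had 323, 131 and 129.7 CPM and JUN had 245, 121 and 124 CPM. JUNB had 112, 105 and 117 CPM and JUND had 129, 126 and 136 CPM, while FOS itself, which serum induces within minutes, had only 12.2, 8.77 and 8.27 CPM. EGR1, another serum-response gene, had 100.1, 48.3 and 43.5 CPM and MYC had 103, 39.8 and 40.5 CPM. FOSL2, JUNB and JUND were alike in the 3 libraries, whereas FOSL1, JUN, EGR1 and MYC were over 2 times higher in DMSO 1 than in DMSO 2.

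Transcripts of dividing cells were present in the starved cells. All 35 genes of S phase and mitosis were above 1 CPM in every library. MKI67, the antigen Ki-67 of cycling cells, had 435, 526 and 437 CPM, and TOP2A, topoisomerase IIα of S and G2 phases, had 205, 239.6 and 268 CPM. The replication helicase genes MCM3 with 291, 501 and 543 CPM and MCM7 with 297, 334 and 377 CPM had the most reads of their complex. CENPF, a kinetochore protein of G2 and mitosis, had 949, 539.7 and 844 CPM, and was the 1 gene among these 5 that was highest in DMSO 1. All 27 replication-dependent histone genes on the list had counts, led by the linker histones H1-2 with 460.2, 551 and 645 CPM and H1-4 with 327, 356 and 429 CPM.

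Cyclin D2 dominated the G1 cyclins. Per kilobase CCND2 stood at 196, 359 and 337, CCND1 at 69.6, 76.3 and 80.9 and CCND3 at 10.2, 13.4 and 14.04, and the 3 ranges did not overlap. CDK6 had 665, 396 and 345 CPM and CDK4 had 121, 141 and 163 CPM. CDKN2A, the locus of p16 and ARF, was read at 98.8, 122 and 123.5 CPM, and CDKN1A (p21) at 97.6, 68.6 and 68.2 CPM. RB1 had 70.2, 60.3 and 55.1 CPM. CCND1 lies in the 11q13 segment that is amplified in many oesophageal carcinomas, and its neighbours PPFIA1 with 161, 142 and 137 CPM and FADD with 21.9, 18.7 and 22.6 CPM were expressed, while FGF3, FGF4 and FGF19 had no count. Copy number was not measured.

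Genes known to respond to serum withdrawal were mixed. GAS5, a growth arrest-linked noncoding RNA with a terminal oligopyrimidine tract, had 353, 259 and 244 CPM, FOXO3 had 286, 227 and 187 CPM and DDIT4, an mTORC1 inhibitor, had 137, 157 and 170.2 CPM. IRS2, a FOXO target, had 100, 58.3 and 54.3 CPM and BTG1, an antiproliferative gene, had 72.6, 38.3 and 36.4 CPM. TXNIP and PDK4, commonly high in starved cells, had no count in any library. TXNIP is a widely expressed gene, and whether these zeros come from the cells or from the counting was not tested.

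Genes of lipid synthesis were read in every library. Besides SCD, FASN, the fatty acid synthase, had 551, 1129 and 1235 CPM and ACLY, which makes cytosolic acetyl-CoA, had 331, 779 and 799.9 CPM. HMGCS1, an early enzyme of the mevalonate pathway, had 193, 611 and 523 CPM. INSIG1, the sterol-responsive anchor of SREBP, had 113, 318 and 294 CPM and SREBF2, the SREBP2 gene, had 268, 409 and 425 CPM. Of the 27 genes, 26 were above 1 CPM in every library and 18 had a mean of 100 CPM or more. The exception was DHCR7, the last enzyme of the Kandutsch-Russell pathway, with 0, 3 and 1 counts. The list took 0.471%, 1.10% and 1.11% of the counts, so its total in DMSO 1 was less than in either other library.

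Glycolysis genes took 1.08%, 1.17% and 1.27% of the counts, with all 19 above 1 CPM in every library. After GAPDH, PKM (pyruvate kinase) had 1381, 1651 and 1818 CPM, ENO1 (enolase 1) had 1072, 1197 and 1430.0 CPM and LDHA had 710.5, 924 and 957 CPM. Among NRF2 targets the pentose phosphate enzyme TKT had 699, 891 and 999 CPM, the ferritin chains FTL and FTH1 had 679, 288 and 279.5 CPM and 476, 333 and 322 CPM, and NQO1 had 175, 184 and 193 CPM. TXNRD1, thioredoxin reductase, had 563, 209 and 186 CPM. FTL and TXNRD1 were over 2 times higher in DMSO 1 than in DMSO 2, while NQO1 was nearly level.

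Interferon-stimulated genes were readable without added interferon: 20 of 25 were above 1 CPM in every library, against 60.3% of all protein-coding genes. IFITM3, which blocks viral entry, had 232, 425 and 414 CPM, and OAS3, a sensor of double-stranded RNA, had 184, 215 and 215 CPM. STAT2, a subunit of the interferon-activated factor ISGF3, had 143, 139 and 144 CPM. IFIT1, which binds foreign RNA caps, had 13.6, 40.8 and 35.2 CPM, and IFIT2 had 31.1, 88.95 and 67.97 CPM. OAS3 and STAT2 were close in the 3 libraries, whereas IFITM3, IFIT1 and IFIT2 were lowest in DMSO 1.

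Of 22 long and structural noncoding RNAs on the list, 16 were above 1 CPM in every library and 14 had a mean of 10 CPM or more. Over all 60591 genes, 15956 and 10259 reached these 2 levels. Of 7500 long intergenic noncoding RNA genes, 8.44% were at 1 CPM or more in every library. NEAT1, the scaffold of paraspeckles, had 705, 595 and 685 CPM. MIR205HG (chr1:209428820-209432838), the host transcript of the squamous microRNA miR-205, had 132, 585 and 609 CPM. The mature arm of that microRNA lies within the gene span, at chr1:209432166-209432187 on the plus strand, and is printed to show what the host carries, with its seed (bases 2 to 8) in capitals (RefSeq, GRCh38.p14). The counts are of the host gene and do not measure the microRNA.
hsa-miR-205-5p: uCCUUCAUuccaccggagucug

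Some genes were listed at 0 that cells of this kind transcribe. All 15 mitochondrially encoded genes listed had 0 counts in every library, including MT-CO1 and MT-ND4, which every living cell of this kind transcribes. These genes are therefore only listed at 0, and nothing is read from it about the cells. RN7SK and RPPH1, polymerase III transcripts of every cell, and RN7SL2 were also listed at 0. In the GENCODE 29 annotation all exon bases of RN7SK and RPPH1 overlap those of another gene. MEG3, a noncoding RNA that is often lost in tumours, had no count either.

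Differences between the libraries were also read list by list. For each pair, the log2 ratio of CPM + 1 was taken over the 10259 genes with a mean of at least 10 CPM, and its median over all of them was -0.02 for DMSO 1 over DMSO 2 and -0.01 for DMSO 1 over DMSO 3. Over 2-fold apart were 353 genes (3.44%) in the first pair, 374 (3.65%) in the second and 6 (0.0585%) between DMSO 3 and DMSO 2. DMSO 1 was the lowest of the 3 libraries for 45.9% of these genes and the highest for 42.5%. Lists are described against these shares, and all were chosen with earlier results of these data known.

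Sterol and fatty acid synthesis genes showed the largest list median in either direction among the lists with at least 5 such genes, -1.21 for DMSO 1 over DMSO 2 and -1.20 for DMSO 1 over DMSO 3, against 0.08 for DMSO 3 over DMSO 2. DMSO 1 was lowest for 25 of 26 genes (96.2%), and 18 of 26 (69.2%) were over 2-fold apart, against 4.97% of all genes. Interferon-stimulated genes had medians of -1.06 and -1.11, with DMSO 1 lowest for 10 of 12. The basal list had medians of -0.77 and -0.56, with DMSO 1 lowest for 11 of 17 and highest for 3. Receptor tyrosine kinases had -0.51 and -0.55, with DMSO 1 lowest for 16 of 25, and Notch and Frizzled receptors had -0.55 and -0.54, with 10 of 14.

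Other lists had positive medians for DMSO 1 over each of the other libraries. NF-kB subunits and inhibitors had medians of 0.66 and 0.53, with DMSO 1 highest for 10 of 11 genes, and AP-1 and immediate-early factors had 0.55 and 0.49, with 11 of 14. NRF2 targets split both ways: their medians were 0.54 and 0.40, with DMSO 1 highest for 10 of 16 and lowest for the other 6. Genes of the endoplasmic reticulum stress response, a list written after the values had been seen, had 0.83 and 0.90, with DMSO 1 highest for 20 of 21. Targets of ATF4, the factor of the integrated stress response and likewise listed afterwards, had 0.73 and 0.65, with 19 of 22. Between DMSO 3 and DMSO 2 the medians of these 5 lists lay from -0.10 to 0.07.

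**Figure D4:**
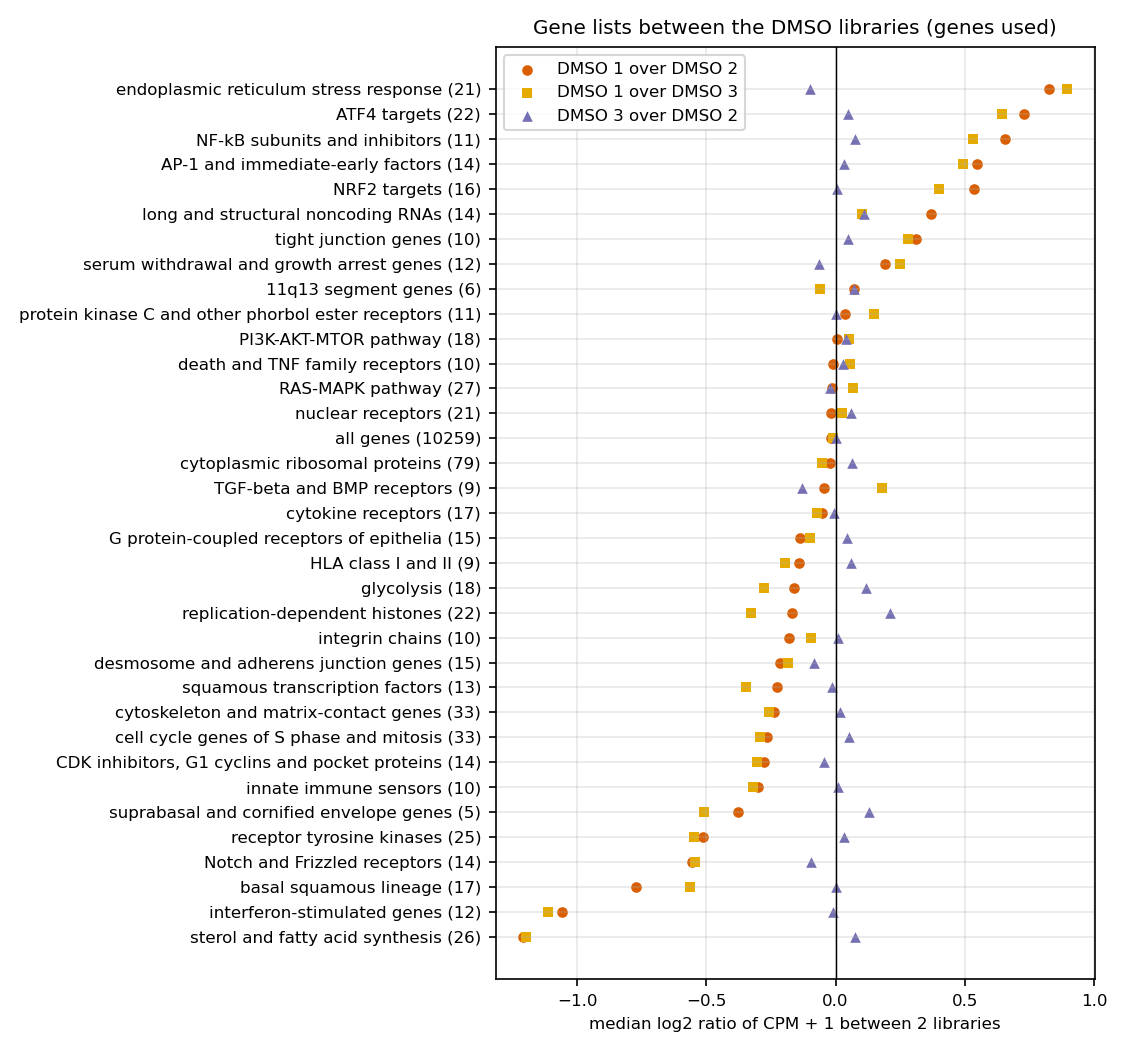
Median log2 ratio of CPM + 1 (horizontal axis) between DMSO libraries for each gene list, with the number of genes used in brackets; lists with fewer than 5 such genes are not drawn. The DMSO 3 over DMSO 2 points stay near 0, while the DMSO 1 ratios run from -1.21 for sterol and fatty acid synthesis to 0.90 for the endoplasmic reticulum stress response. The stress response and ATF4 lists were written after the values had been seen.

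Several single genes stood far higher in DMSO 1 than in the other libraries. HSPA5 (chr9:125234853-125241330), the chaperone BiP of the endoplasmic reticulum, had 2026, 540.4 and 504 CPM, a log2 ratio of 1.90 to DMSO 2. HERPUD1, of endoplasmic reticulum-associated degradation, had 316, 71.6 and 70.2 CPM, and DNAJB9, a co-chaperone of BiP, had 49.4, 12.1 and 13.2 CPM. DDIT3 (CHOP), the death-linked factor of this response, had 63.8, 15.3 and 12.6 CPM. SLC7A11, the cystine transporter, had 147, 33.4 and 31.8 CPM and the kinase gene SGK1 had 109, 26.02 and 24.5 CPM. CXCL8, the chemokine interleukin-8, had 32.03, 3.41 and 3.57 CPM and TRAF1, an NF-kB target, had 68.5, 10.4 and 10.6 CPM. HDAC9, a class IIa histone deacetylase, had 175, 46.6 and 45.3 CPM, and the pseudogene ZSCAN12P1 had 43.02, 11.7 and 11.01 CPM. For all 10 genes DMSO 2 and DMSO 3 differed by less than 0.30 on the log2 scale. They were named because they were highest in DMSO 1 against the mean of the other libraries. The ranking took genes with a mean of at least 10 CPM and left out clone and locus names. CXCL8 reached that mean only through DMSO 1.

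The 10 genes lowest in DMSO 1 by the same rule included several of squamous identity. KRT15 led with log2 ratios of -3.13 and -3.15 to DMSO 2 and DMSO 3. TP73, the p63 relative, had 1.20, 17.8 and 17.4 CPM, and NOTCH3 and FGFR3 followed with ratios to DMSO 2 of -2.70 and -2.49. FGFBP1, a secreted FGF-binding protein of squamous epithelium, had 41.7, 204 and 200.2 CPM, and MIR205HG had a ratio of -2.14. ALDH3B2, an aldehyde dehydrogenase, had 4.64, 27.2 and 27.2 CPM and the matrix gene MXRA5 had 22.4, 116 and 91.7 CPM. METTL7A had 2.80, 19.3 and 20.8 CPM and PRXL2A had 9.28, 43.5 and 45.8 CPM.

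Motifs of the factors known for these lists were looked for in RefSeq promoters (GRCh38.p14), which run from 250 bases before to 50 after the gene start, on both strands and with overlapping matches kept. A match describes letters only. The endoplasmic reticulum stress element, CCAAT and CCACG with 9 bases of any kind between them, stood in 6 of 21 promoters of that list (28.6%), against 0.106% of 17940 promoters. The interferon-stimulated response element core, GAAA and GAAA with 2 bases between, stood in 13 of 17 (76.5%) against 3.31%, and the kB core, GGG and TTCC with 3 bases between, in 5 of 10 NF-kB list promoters (50%) against 6.86%. For NRF2 targets TGACNNNGC stood in 5 of 18 (27.8%) against 14.3%. For sterol genes TCACNCCAC was found in 1 of 21 (4.76%) against 1.14%, and for ATF4 targets TGATGNAAT in 0 of 21 against 0.758%. The following matches, each with 12 flanking bases and the motif in capitals on the strand where it reads forward, show the elements in the 3 lists with the highest shares.
HSPA5, stress element, chr9:125241379-125241421, minus strand: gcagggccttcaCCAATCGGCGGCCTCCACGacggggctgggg
HSP90B1, stress element, chr12:103930204-103930246, plus strand: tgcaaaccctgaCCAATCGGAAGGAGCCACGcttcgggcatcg
XBP1, stress element, chr22:28800591-28800633, minus strand: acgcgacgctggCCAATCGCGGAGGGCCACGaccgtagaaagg
IFIT1, response element, chr10:89392495-89392528, minus strand: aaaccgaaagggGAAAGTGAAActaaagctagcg
IFIT3, response element, chr10:89327863-89327896, minus strand: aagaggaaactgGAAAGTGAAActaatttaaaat
DDX60, response element, chr4:168318819-168318852, minus strand: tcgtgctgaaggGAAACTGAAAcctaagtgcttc
NFKBIA, kB core, chr14:35404809-35404842, plus strand: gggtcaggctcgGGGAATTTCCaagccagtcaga
TNFAIP3, kB core, chr6:137867180-137867213, minus strand: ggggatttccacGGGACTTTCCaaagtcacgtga

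These promoters belong to genes with clear values. Beside HSPA5, HSP90B1 (the chaperone GRP94) had 772, 435 and 402 CPM and XBP1, a factor of the response, had 167, 71.2 and 74.9 CPM. IFIT3 had 12.3, 40.1 and 32.9 CPM, DDX60 had 24.4, 53.5 and 57.5 CPM, and IFIT1 had 13.6, 40.8 and 35.2 CPM. NFKBIA differed little, at 71.97, 58.6 and 65.2 CPM, while TNFAIP3 stood at 195, 60.6 and 61.8 CPM.

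The library ratios also followed the base composition of the transcripts. The Spearman correlation of the log2 ratio with transcript GC content over 10223 genes was -0.40 for DMSO 1 over DMSO 2, -0.50 for DMSO 1 over DMSO 3 and 0.40 for DMSO 3 over DMSO 2. With genes cut into 10 classes of equal size by GC content, the median ratio of DMSO 1 over DMSO 2 was 0.31 in the most AT-rich class and -0.22 in the most GC-rich one. When each gene was set against the median of its own GC class, the sterol list had medians of -1.15 and -1.23 and the interferon list -1.04 and -1.07. The basal list had -0.57 and -0.49. The stress response list, written after the values had been seen, had 0.76 and 0.88. KRT5 had -1.90 and -1.89, KRT15 -3.00 and -2.95 and HSPA5 1.94 and 1.98 after the same step. The receptor tyrosine kinase medians moved from -0.51 and -0.55 to -0.35 and -0.36. What else moved with the difference of DMSO 1 was not tested.

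Promoter composition went with the level of expression. Among 15079 protein-coding genes with a promoter entry, the median number of CpG sites in the promoter window was 6 for genes with no count, 10 for those with a mean below 1 CPM, 21 at 1 to 10 CPM and 27 at 10 to 100 CPM. It was 28 in both higher classes. The box TATAAA, on either strand, stood in 20.98% of promoters of genes with no count, in 4.83% at 10 to 100 CPM and in 19.1% of the 47 at 1000 CPM or more. The pyrimidine tract at the start stood in 2.63% of genes with no count and in 31.9% of those 47. Ribosomal protein genes already scored for the tract, such as RPS3, RPS14, RPL7A and RPL12, are among the 47, so this share is not separate from theirs. Genes are not independent replicates, so these shares are given without a test.

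**Figure D5:**
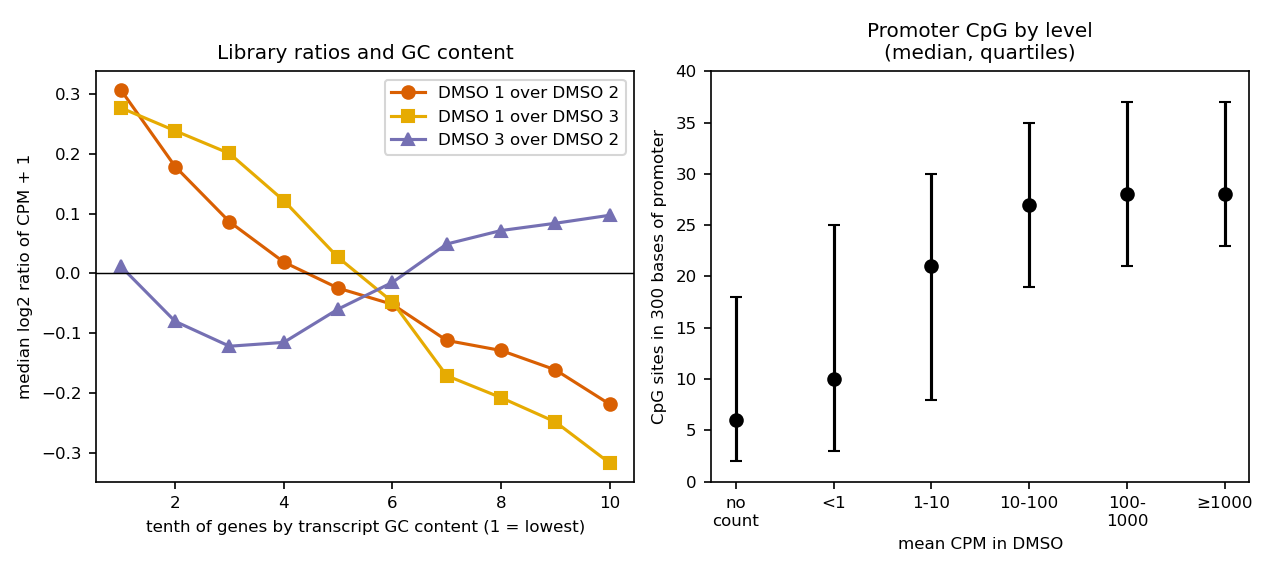
Left, median log2 ratio of CPM + 1 between DMSO libraries for 10 equal classes of genes by transcript GC content; right, median and quartiles of CpG sites per promoter window by mean CPM class. The DMSO 1 lines fall from the lowest to the highest class, and the promoter median climbs from 6 sites in genes with no count to 28 in the 2 highest classes.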

How the data were processed

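The authors deposited raw read counts per gene symbol, 1 column per library and with no normalization, and 0 columns fell outside the labels. The submitters' processing notes name the aligner HISAT2 2.1.0, the counter HTSeq 0.12.4 and the builds hg38 and GRCh38. Per the labels, total RNA was extracted with TRIzol. Which annotation release, read layout and strand setting served is not given in the sources used here. Reads of antisense or overlapping genes therefore cannot be told apart, and reads of near-identical copies can be split or dropped. The control columns were taken as the DMSO samples with their numbers.

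CPM is the deposited count divided by the column total, times 1000000. Of 60591 symbols, 37725 were found in GENCODE 29 (GRCh38) through current names and 18800 through its own names, and 4066 had no single match. Transcript length and GC content come from the longest transcript of the basic set. Promoters and microRNAs come from RefSeq tables (GRCh38.p14). The 3 DMSO totals set the counting limits given in the report, which cover counting error only because reads carry no molecular identifiers.

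The members and the 47 gene lists (1092 genes) were chosen with earlier results of these data known. The lists of endoplasmic reticulum stress and ATF4 targets, and 2 alternatives, were added after the data had been seen. Named genes are the 25 with the highest mean CPM, the 3 highest of each list, receptor and signalling genes at 10 CPM or more, up to 5 list members per list with no count, the 10 highest and 10 lowest in DMSO 1, and KRT5, TP63 and LAMB3. Some genes taken by this rule are not reported here, and some further list members were named after their values had been seen.

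No group comparison was made, so no p-value is given. Alternatives were TMM factors (edgeR 4.0.16), size factors of DESeq2 1.42.0, other minimum levels, levels per kilobase, centring by GC content and leaving out each library. The steps were run on counts drawn from a common expression profile with counting error only. The chi-square per degree of freedom came to 1.01 and 0 of 10256 genes were over 2-fold apart. All of 200 genes changed 3-fold were found, but they were picked only from genes well above the 10 CPM minimum. Genes near that minimum were not covered by this check. Such draws check the arithmetic and cannot show how the steps behave when libraries differ in other ways.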

Additional observations from a re-analysis of the deposited data

How the results depend on the processing

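The number of genes at 1 CPM or more in all 3 DMSO libraries was 15956, and 29186 when any count sufficed. The share of counts in the 10 most abundant genes was 5.01%, 12.3% when reads were scaled per kilobase and 4.51% over protein-coding genes alone, a setting chosen after seeing the data. The number of genes over 2-fold apart between DMSO libraries was 510 at a mean of 10 CPM and 1816 at a mean of 1 CPM, and it ran from 9 to 418 when 1 library was left out, with the 9 obtained without DMSO 1. It was 498 with TMM factors, 492 with DESeq2 size factors and 388 after centring by GC content, also chosen after seeing the data. Of 336 named genes, 15 moved by over 1.5 times in their mean without DMSO 1: CXCL8, DDIT3, DNAJB9, HBEGF, HDAC9, HERPUD1, HSPA5, IL6ST, MAP2, MYC, SGK1, SLC7A11, TNFAIP3, TRAF1 and ZSCAN12P1. None of the 336 moved that far with TMM factors, without DMSO 2 or without DMSO 3. The cause of the difference of DMSO 1 was not tested. No paired analysis was possible because a single group is described and no result comes from a test. Counts near 0 limit what can be said of low genes: the number of genes at 0 counts in all 3 DMSO libraries was 23173, against 29520 with a summed count of 3 or less.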
